A study of Homo sapiens with 30 samples.

Results

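The enzymes described here are the cytochrome P450 families CYP2, CYP3 and CYP4, the UDP-glucuronosyltransferases UGT1A, UGT2A and UGT2B, the cytosolic sulfotransferases (SULT) and the glutathione S-transferases (GST) of HepG2 cells, an established human liver tumour line that the study describes as hepatoblastoma. Members were chosen by symbol alone: every protein-coding row of the count table whose symbol starts with one of these family names, with the GST classes A, K, M, O, P, T and Z. The rule gave 81 members of 60107 gene rows, namely 17 CYP2, 4 CYP3, 12 CYP4, 7 UGT1A, 10 UGT2, 13 SULT and 18 GST genes. The rule itself uses no measured value, but the families were chosen with earlier results of these data known.

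Messenger RNA was read in 30 libraries, in 10 groups of 3 labelled as biological replicates. Cells were transfected with Lipofectamine RNAimax and received sorafenib at 10 µM, a multikinase inhibitor used in advanced hepatocellular carcinoma, or its solvent dimethyl sulfoxide (DMSO). In the 6 h experiment they carried an inhibitor control (IC) or the inhibitor of miR-200c-3p (I-miR-200c-3p), and lysates were taken 6 h after the drug. In the 24 h experiment the oligonucleotide was a control mimic (MC), an imitation of miR-222-5p (M-miR-222-5p) or one of miR-512-3p (M-miR-512-3p), and lysates were taken 24 h after the drug. Time, type of oligonucleotide and experiment therefore cannot be told apart between both sets. All groups are a single cell line, and a level is a mean over the whole culture, so that fewer expressing cells and less RNA per cell cannot be told apart. The library totals were 3940000 to 9660000 counts (median 6460000). Levels are counts in each 1000000 of a library, scaled by the trimmed mean of M-values (CPM below). Since each transcript gives 1 fragment near its 3′ end, CPM values are not divided by gene length. The liver markers ALB, AFP, APOA1, APOB, TTR, TF, SERPINA1 and HNF4A had counts in all 30 libraries, with ALB at 2353 to 5135 CPM. Of the fibroblast markers, COL1A2 and DCN were at 0 in all libraries, COL3A1 had a count in 2 libraries and COL1A1 in 26, at up to 11.7 CPM. Of the leukocyte markers, PTPRC had a count in 1 library, while CD68 had counts in all 30, at up to 11.1 CPM, and LYZ was at 99.1 to 305 CPM. Of the endothelial markers, VWF was at 0, and PECAM1 and CDH5 had counts in 17 and 8 libraries, at up to 3.05 and 0.919 CPM.

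Drug metabolism is commonly divided into phase I, in which P450 enzymes oxidise a compound, and phase II, in which a sulfate, glucuronic acid or glutathione is attached to it. P450 enzymes take their electrons from the reductase POR, sulfotransferases need the sulfate donor PAPS, UGT enzymes need UDP-glucuronic acid, and GST enzymes need glutathione. In the liver these genes are known to be set by nuclear receptors and hepatocyte factors such as HNF4A. Sorafenib itself is known to be oxidised by CYP3A4 and glucuronidated by UGT1A9.

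HepG2 cells held transcripts of conjugating enzymes far above those of the P450 enzymes that oxidise most drugs. Of the 81 members, 53 had a count in at least 1 library and 28 had none. The edgeR filter on low counts passed 24 members at 6 h and 27 at 24 h, and those of 6 h were all among those of 24 h. Over the 15 DMSO libraries, 14 members were above 10 CPM on average and 11 between 1 and 10 CPM. All members together took 0.0583% to 0.107% of the counts of a library. GSTO1 alone held 33.8% of the counts of all members, and the 3 members with most counts held 55.8%. The plot of DMSO levels gives each library for the 27 members tested.

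**Figure D1:**
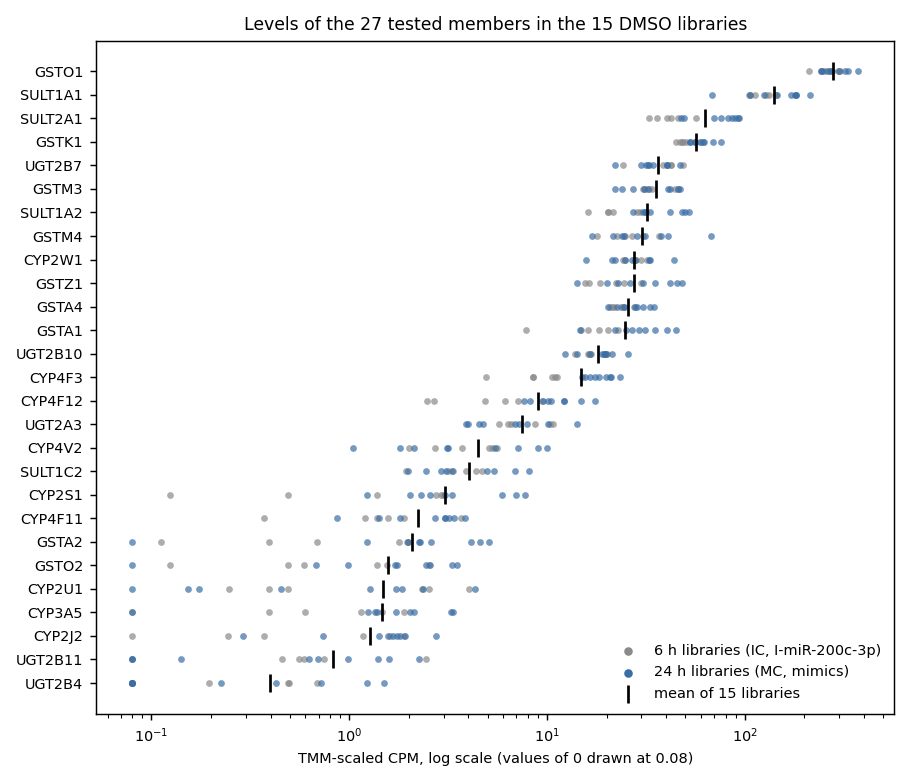
Level of the 27 tested members in the 15 DMSO libraries, in TMM-scaled CPM on a log axis, ordered by mean; grey points are 6 h libraries, blue points 24 h libraries, and the black mark is the mean. GSTO1 stands at a mean of 279 CPM, and the 6 h libraries of SULT2A1 and CYP4F3 lie mostly below their 24 h libraries.

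In order of mean DMSO level, GSTO1 (279 CPM) was followed by SULT1A1 (139.8), SULT2A1 (62.6) and GSTK1 (56.3). The ranges over the 15 DMSO libraries were 209.8 to 373 CPM for GSTO1 and 68.5 to 213 for SULT1A1. This order pools 6 h and 24 h. SULT2A1 and GSTK1 overlapped, with 32.6 to 93.6 and 44.8 to 76.1 CPM. Of these, GSTK1 had the higher mean in IC (50.6 ± 8.38 CPM, against 38.1 ± 6.96 for SULT2A1) and SULT2A1 in MC (83 ± 11.7, against 67 ± 10.3 for GSTK1; SD, n = 3). Below these, UGT2B7 (36.4), GSTM3 (35.4), SULT1A2 (32.1), GSTM4 (30.1), CYP2W1 (27.6) and GSTZ1 (27.4) had overlapping ranges, so their order is not settled by these libraries. The further tested members fell from 25.7 CPM (GSTA4) to 0.398 CPM (UGT2B4).

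Counts assigned to the P450 enzymes of drug oxidation were at or near the limit of detection. CYP2A6, CYP2A7, CYP2A13, CYP2B6, CYP2C19 and CYP2F1 had no count in 30 libraries. Over the 199000000 counts of all libraries, a count of 0 allows a mean level of up to 0.0151 CPM, taking 3 counts as the limit and covering counting error only. The limit holds for reads that counting could give to 1 gene: of the 50-base words in the last 500 bases, 70.3% for CYP2D6, 57% for CYP2D7, 55.4% for CYP2A6, 49.9% for CYP2A7 and 29.5% for CYP2F1 also occur in other genes of the reference. Low or absent counts of these 5 therefore cover only the part that is not shared, and may understate their expression. The share was 0% for CYP2C8, CYP2C18, CYP2C19, CYP2E1 and CYP3A4. CYP3A4, CYP2C8, CYP2C18 and CYP2D7 each had 9 counts in all, CYP2D6 had 6, and CYP2E1, the ethanol-oxidising enzyme, had 107 in 18 libraries. CYP2R1, a vitamin D 25-hydroxylase, had 127 counts, the fetal enzyme CYP3A7 had 69 and CYP3A43 had 50. In the CYP4 family, CYP4F2 (143 counts), CYP4F8 (19) and CYP4X1 (4) were under the filter, and CYP4A11, CYP4A22, CYP4B1, CYP4F22 and CYP4Z1 had no count.

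The UGT1A rows held 4 counts in all, all of them on UGT1A1. UGT1A4, UGT1A6, UGT1A7, UGT1A8, UGT1A9 and UGT1A10 had none. These genes share their last exons: in the reference transcripts, 100% of the 50-base words in the last 500 bases of each UGT1A member also occur in other genes. A read of a 3′ library there cannot be given to 1 member, so a count of 0 does not measure expression of this family. The same holds in part elsewhere, with 100% of these words shared for UGT2A1, UGT2A2 and SULT1A3, 99.3% for SULT1A4, 95.3% for GSTM1 and GSTM2, 90.7% for GSTT2 and GSTT2B, 75.4% for SULT1A2, 35.5% for UGT2B28 and 32.2% for CYP4A11 and CYP4A22. For SULT1A1 the share was 27.1%, for GSTM4 18.9%, for GSTA1 and GSTA2 14.2% each, and for UGT2B7 8.87%. It was 0% for SULT2A1, CYP4F3, CYP4F12, GSTO1, GSTK1, GSTM3, GSTA4 and UGT2B10.

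Among the conjugating enzymes under the filter were SULT1C4 (100 counts), GSTP1 (86), SULT1E1 (77), GSTM2 (48), SULT1A4 (34) and SULT2B1 (26). SULT1E1 is the estrogen sulfotransferase, and GSTP1 is the pi-class enzyme common in many other tumours. UGT2B15 had 15 counts, SULT1B1 9, GSTM5 6, GSTM1 5, and SULT1A3, SULT6B1 and GSTT4 had 1 each. UGT2A1, UGT2A2, UGT2B17, UGT2B28, SULT1C3, SULT4A1, GSTA3, GSTA5, GSTT2 and GSTT2B had none.

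The first question was whether sorafenib changed these enzymes in each transfection. At 24 h most expressed members stood lower with sorafenib than with DMSO, whereas at 6 h they were spread around 0. Few passed the test singly: SULT2A1 fell in MC and in M-miR-512-3p, SULT1A1 fell and CYP4F3 rose in M-miR-512-3p, and CYP4F12 rose in I-miR-200c-3p. The test was the edgeR quasi-likelihood F test, two-sided, with Benjamini-Hochberg adjustment over all genes tested and a threshold of 0.05.

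In IC, 0 of 24 members were called, where 0.0393% of all genes were, and 1 had an unadjusted p under 0.05 (3.78% of all genes). DESeq2 also called 0 there. In I-miR-200c-3p, 1 of 24 was called, beside 2.28% of all genes (0.911% higher, 1.37% lower). Unadjusted p under 0.05 was reached by 4 members, beside 15.3% of all genes. In MC, 1 of 27 was called, beside 2.6% of all genes (1.8% higher, 0.793% lower), and 5 reached an unadjusted p under 0.05, beside 16.9%. In M-miR-222-5p, edgeR called 0 of 27, beside 4.38% of all genes, and DESeq2 called 1. There 5 reached an unadjusted p under 0.05, beside 19.1%. In M-miR-512-3p, 3 of 27 were called, 1 higher and 2 lower, beside 9.96% of all genes (5.34% higher, 4.62% lower), and 8 reached an unadjusted p under 0.05, beside 24.2%. The members called, at most 3 in a transfection, were thus about as many as the background gives.

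The fold changes at 24 h lay mostly on the lower side. With sorafenib, 22 of 27 members were lower in MC, 20 of 27 in M-miR-222-5p and 22 of 27 in M-miR-512-3p. Their median log2 fold changes were −0.60, −0.37 and −0.66, while the medians of all genes tested were −0.01, −0.04 and −0.03. Of all genes tested, 50.8%, 52.2% and 51.6% were below 0 in these comparisons. The 27 include members near the floor, namely CYP3A5, GSTA2, GSTO2, UGT2B11 and UGT2B4. Such a member can pass the filter through its higher group alone, so its direction is no evidence of a fall or rise. Among the 14 members above 10 CPM over all libraries, 13, 13 and 12 were lower, with medians of −0.54, −0.46 and −0.59. The 8179 genes above the same level had medians of 0.04, 0.00308 and 0.00771, and 46.6%, 49.7% and 49.4% of them were below 0. At 6 h, 10 of 24 members were lower in IC and 7 of 24 in I-miR-200c-3p, with medians of 0.04 and 0.12. The medians depended on single libraries in part: that of M-miR-222-5p was −0.23 without DMSO replicate 2 and −0.24 without sorafenib replicate 3, and that of I-miR-200c-3p was 0.25 without DMSO replicate 3. Each of the 5 comparisons has its own DMSO and sorafenib libraries. Genes are not independent replicates, and no test was made over them.

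**Figure D2:**
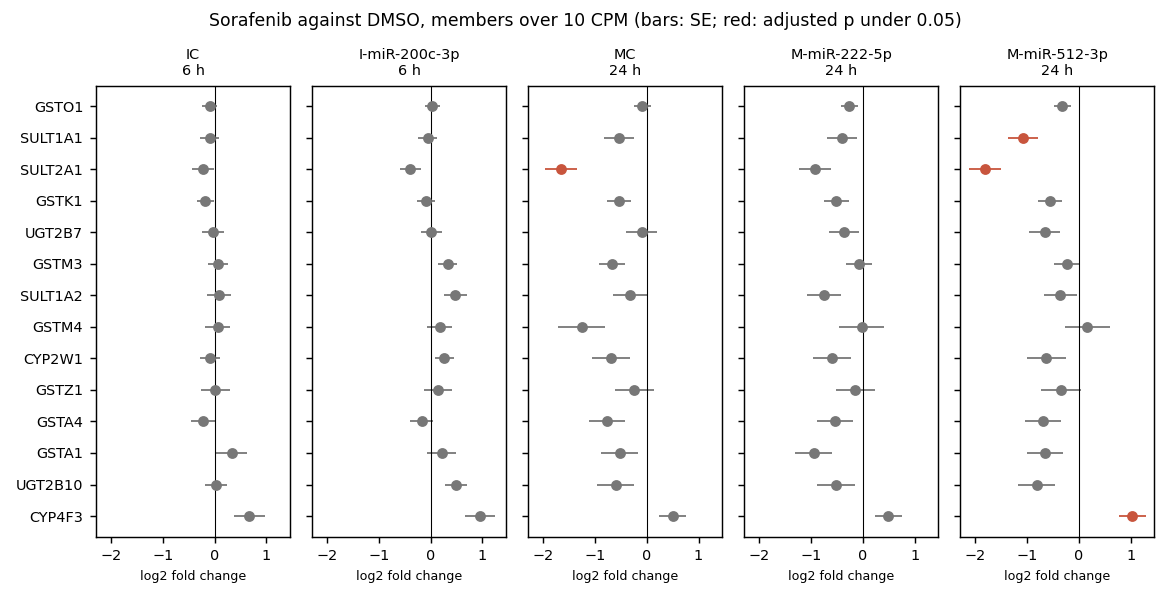
Log2 fold change of sorafenib against DMSO for the 14 members above 10 CPM in each transfection; points are edgeR estimates, bars are their standard errors, and red marks an adjusted p under 0.05. The 6 h estimates lie on both sides of 0, with CYP4F3 the highest in both transfections (0.67 and 0.96). In I-miR-200c-3p, UGT2B10 (0.49), SULT1A2 (0.47) and SULT2A1 (−0.40) also stand away from 0. At 24 h, 13, 13 and 12 of the 14 lie below 0 in the 3 transfections.

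SULT2A1 sulfates dehydroepiandrosterone, bile acids and hydroxysteroids, and its gene lies at chr19:47870467-47886315 on the minus strand (GRCh38, GENCODE release 44). In MC, SULT2A1 stood at 92.8, 86.3 and 70 CPM with DMSO and at 20.5, 36.8 and 22.2 CPM with sorafenib. In M-miR-512-3p it stood at 82.4, 89.2 and 93.6 CPM with DMSO and at 21.8, 16.2 and 37.1 CPM with sorafenib. In both transfections every sorafenib library lay below every DMSO library by a wide margin. The log2 fold change was −1.65 (SE 0.31, edgeR adjusted p = 0.00324) in MC and −1.81 (SE 0.31, edgeR adjusted p = 0.000455) in M-miR-512-3p. Leaving out any 1 of the 6 libraries of a comparison kept both calls.

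In M-miR-222-5p, SULT2A1 stood at 75.5, 47.4 and 49.3 CPM with DMSO and 19.7, 45.2 and 27.2 CPM with sorafenib. The groups did not overlap, but replicate 2 with sorafenib came close to the DMSO libraries. The log2 fold change of −0.93 (SE 0.31) did not pass in edgeR (adjusted p = 0.0849). Of 6 edgeR fits without 1 library, only 1 passed, that without sorafenib replicate 2 (adjusted p = 0.0229). The adjusted p was up to 0.394, without sorafenib replicate 1, and the log2 fold changes ran from −1.27 to −0.653. Replicate 2 was also the highest of the sorafenib libraries in MC. The 6 h libraries held 45.9, 32.6 and 35.8 CPM in IC with DMSO, 30.1, 37.2 and 31.2 in IC with sorafenib, 40.2, 56.5 and 42.1 in I-miR-200c-3p with DMSO and 27.1, 39.4 and 39.3 in I-miR-200c-3p with sorafenib. The IC groups overlapped and the I-miR-200c-3p groups did not, with log2 fold changes of −0.22 (SE 0.21) and −0.40 (SE 0.20), neither of which passed (edgeR adjusted p = 0.999 and 0.36).

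With DMSO, SULT2A1 was at 38.1 ± 6.96 CPM (SD, n = 3) in IC and 83 ± 11.7 in MC, and with sorafenib at 32.8 ± 3.81 and 26.5 ± 8.97. The IC and MC libraries thus lay apart with DMSO and overlapped with sorafenib, whereas over all transfections the DMSO libraries of 6 h and 24 h overlapped, since 1 of I-miR-200c-3p lay above 2 of M-miR-222-5p. Between the sets, experiment and time cannot be told apart. The promoter of SULT2A1, from 250 bases before to 50 after the RefSeq start (GRCh38.p14, chr19:47886266-47886565, minus strand), is shown because this member passed the test in 2 transfections and under every alternative run. Capitals mark the match to GCGTG, the core of the aryl hydrocarbon receptor site, on the other strand.
SULT2A1: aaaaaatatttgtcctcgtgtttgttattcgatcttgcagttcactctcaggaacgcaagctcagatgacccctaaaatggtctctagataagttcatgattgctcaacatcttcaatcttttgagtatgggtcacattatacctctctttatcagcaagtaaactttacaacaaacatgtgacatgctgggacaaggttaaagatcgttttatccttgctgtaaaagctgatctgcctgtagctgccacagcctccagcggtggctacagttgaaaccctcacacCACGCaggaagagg

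SULT1A1, the main phenol sulfotransferase of human liver, lies at chr16:28605196-28614279 on the minus strand. In M-miR-512-3p, SULT1A1 was at 213, 180.3 and 171 CPM with DMSO and 107, 52.9 and 107 CPM with sorafenib, and the groups did not overlap. The log2 fold change was −1.08 (SE 0.29, edgeR adjusted p = 0.0172), and it was called in 3 of 6 fits without 1 library, with an adjusted p of up to 0.0818 without sorafenib replicate 2. In MC, SULT1A1 was at 182, 124 and 68.5 CPM with DMSO and 69.9, 103 and 84 with sorafenib, and in M-miR-222-5p at 178, 106 and 145 with DMSO and 102, 118 and 107 with sorafenib. Those groups overlapped, and the log2 fold changes of −0.54 (SE 0.29) and −0.40 (SE 0.28) did not pass. In the 6 h experiment it was at 113, 105 and 132 CPM in IC with DMSO, 102, 105 and 123 in IC with sorafenib, 144, 128 and 106 in I-miR-200c-3p with DMSO and 86.7, 139.6 and 138 in I-miR-200c-3p with sorafenib. The groups of 6 h overlapped, with log2 fold changes of −0.09 and −0.06. With the counts of SULT1A1, SULT1A2, SULT1A3 and SULT1A4 summed, since their 3′ ends are alike in part, the log2 fold change in M-miR-512-3p was −0.92 (SE 0.23, edgeR adjusted p = 0.01).

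SULT1A2, a close relative of SULT1A1 that also sulfates phenols, had no call. Values at 6 h were 21.6, 29.6 and 28.5 CPM in IC with DMSO, 27.8, 29.1 and 27.7 in IC with sorafenib, 20.3, 20.3 and 16.1 in I-miR-200c-3p with DMSO and 25.6, 34.2 and 19.2 in I-miR-200c-3p with sorafenib. At 24 h with DMSO it stood at 31.2, 27 and 52.2 CPM in MC, 30.7, 31.6 and 48.2 in M-miR-222-5p and 41.7, 49.9 and 33.1 in M-miR-512-3p. With sorafenib it stood at 45.1, 26.9 and 15.6 CPM in MC, 16.6, 20 and 29.4 in M-miR-222-5p and 31, 33.4 and 33 in M-miR-512-3p. The groups overlapped except in M-miR-222-5p, where the log2 fold change was −0.75 (SE 0.33). SULT1C2, a minor sulfotransferase, was at 3.91 ± 2.58 CPM with DMSO and 1.33 ± 1.16 with sorafenib (SD, n = 3) in M-miR-512-3p, with overlapping libraries. Summed over its 13 members, the SULT family was at 252 ± 55.6 CPM with DMSO and 146 ± 21.9 with sorafenib in MC (SD, n = 3). The sums were 243 ± 47.8 and 166 ± 24.7 in M-miR-222-5p, and 324 ± 22.5 and 149 ± 40.7 in M-miR-512-3p. At 6 h they were 187 ± 15.4 and 177 ± 11.5 in IC and 196 ± 23.5 and 187 ± 37.3 in I-miR-200c-3p.

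CYP4F3 hydroxylates leukotriene B4 and, in its liver form, long-chain fatty acids, and it went the other way. Its gene lies at chr19:15640897-15662825 on the plus strand. In M-miR-512-3p, CYP4F3 was at 14.9, 19.8 and 23.2 CPM with DMSO and 33.5, 45.5 and 39.2 CPM with sorafenib. The log2 fold change was 1.03 (SE 0.26, edgeR adjusted p = 0.0116), called in 5 of 6 fits without 1 library and not without DMSO replicate 1 (adjusted p = 0.0829). In MC, CYP4F3 was at 21, 20.9 and 18.2 CPM with DMSO and 26.7, 22.7 and 35.2 with sorafenib, and in M-miR-222-5p at 16.5, 15.6 and 17.5 with DMSO and 19.1, 25.7 and 25.3 with sorafenib. At 6 h, the library values were 11, 11.3 and 8.53 CPM in IC with DMSO, 20.2, 16.7 and 12.3 in IC with sorafenib, 4.93, 10.6 and 8.46 in I-miR-200c-3p with DMSO and 15.3, 14.2 and 17.8 in I-miR-200c-3p with sorafenib. In each of the 5 transfections all 3 sorafenib libraries lay above all 3 DMSO libraries.

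CYP4F3 was the 1 member of 24 tested at both times with this order of libraries in all 5 transfections, and 0.566% of all 12538 genes tested at both times had it. No member had the opposite order in all 5. The log2 fold changes outside M-miR-512-3p did not pass, at 0.67 (SE 0.30) in IC, 0.96 (SE 0.29) in I-miR-200c-3p, 0.50 (SE 0.26) in MC and 0.49 (SE 0.26) in M-miR-222-5p. The edgeR adjusted p was 0.0952 in I-miR-200c-3p and 0.999 in IC. The CYP4F3 promoter (GRCh38.p14, chr19:15641062-15641361, plus strand, RefSeq) is set beside that of SULT2A1, since these members moved in opposite directions in the same libraries; it held no match to the motifs searched, and so no capitals.
CYP4F3: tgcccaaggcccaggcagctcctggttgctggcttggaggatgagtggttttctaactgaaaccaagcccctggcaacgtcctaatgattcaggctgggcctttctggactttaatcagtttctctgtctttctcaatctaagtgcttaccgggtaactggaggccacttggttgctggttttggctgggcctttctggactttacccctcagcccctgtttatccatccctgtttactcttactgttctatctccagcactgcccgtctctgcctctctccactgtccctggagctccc

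The 4 motifs were searched on both strands: AGGTCA (a nuclear receptor half-site), GTTAAT (an HNF1 half-site), GCGTG and TGACNNNGC (the core of the antioxidant response element). A promoter entry was found for 70 of the 81 members. AGGTCA was in 24.3% of these and in 13.8% of all 35116 promoters of the table, GTTAAT in 12.9% and 6.88%, TGACNNNGC in 20% and 13.4%, and GCGTG in 27.1% and 36.5%. A match is a description of letters and not a bound site.

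**Figure D3:**
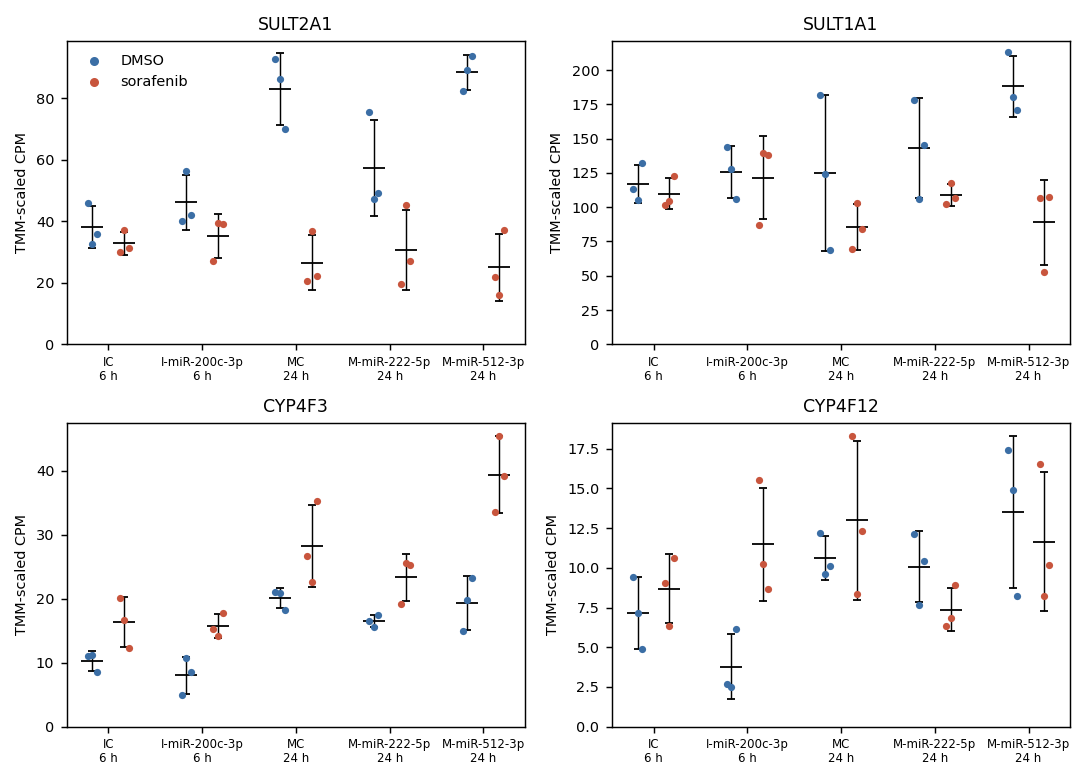
TMM-scaled CPM of SULT2A1, SULT1A1, CYP4F3 and CYP4F12 in each of the 30 libraries, by transfection and time; blue points are DMSO, red points sorafenib, and black marks the mean and SD of 3 replicates. In SULT2A1 the DMSO libraries of MC and M-miR-512-3p stand at 70 to 93.6 CPM and their sorafenib libraries at 16.2 to 37.1, while in CYP4F3 the red points lie above the blue ones in all 5 transfections.

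CYP4F12, a fatty acid hydroxylase at chr19:15673018-15697174 on the plus strand, near CYP4F3, was called in I-miR-200c-3p. It stood there at 2.69, 2.48 and 6.12 CPM with DMSO and 15.5, 10.3 and 8.66 with sorafenib. The log2 fold change was 1.58 (SE 0.39, edgeR adjusted p = 0.0367), but 4 of 6 fits without 1 library lost the call, with an adjusted p of up to 0.16 without sorafenib replicate 1. In IC, CYP4F12 was at 9.43, 7.12 and 4.87 CPM with DMSO and 9.04, 6.33 and 10.6 with sorafenib, and these overlapped. At 24 h it was at 12.2, 9.59 and 10.1 with DMSO and 18.3, 8.36 and 12.3 with sorafenib in MC, 12.2, 7.67 and 10.4 with DMSO and 6.34, 6.81 and 8.89 with sorafenib in M-miR-222-5p, and 17.4, 14.9 and 8.22 with DMSO and 16.6, 8.2 and 10.2 with sorafenib in M-miR-512-3p. The log2 fold changes there were 0.29, −0.47 and −0.21, with SE of 0.39, 0.40 and 0.39. The difference between the sorafenib effects in I-miR-200c-3p and IC was 1.31 (SE 0.56) and did not pass (edgeR adjusted p = 1). With DMSO, CYP4F12 was lower in I-miR-200c-3p than in IC by a log2 fold change of −0.90 (SE 0.41), which did not pass either (edgeR adjusted p = 0.925).

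The further CYP4 members were low. CYP4V2, a fatty acid hydroxylase, was at 8.72 ± 1.46 CPM with DMSO and 4.87 ± 4.51 with sorafenib in MC, and CYP4F11 at 2.93 ± 0.198 and 2.12 ± 1.78 (SD, n = 3). Their libraries overlapped. Summed, the CYP4 family was at 16.3 ± 2.98 CPM with DMSO and 35.5 ± 6.55 with sorafenib in I-miR-200c-3p, and at 40.4 ± 3.89 and 57.5 ± 2.25 in M-miR-512-3p. In IC the sums were 25.7 ± 2.7 and 32.1 ± 4.74, in MC 44 ± 1.44 and 48.5 ± 4.96, and in M-miR-222-5p 30.9 ± 1.21 and 37.6 ± 4.31.

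**Figure D4:**
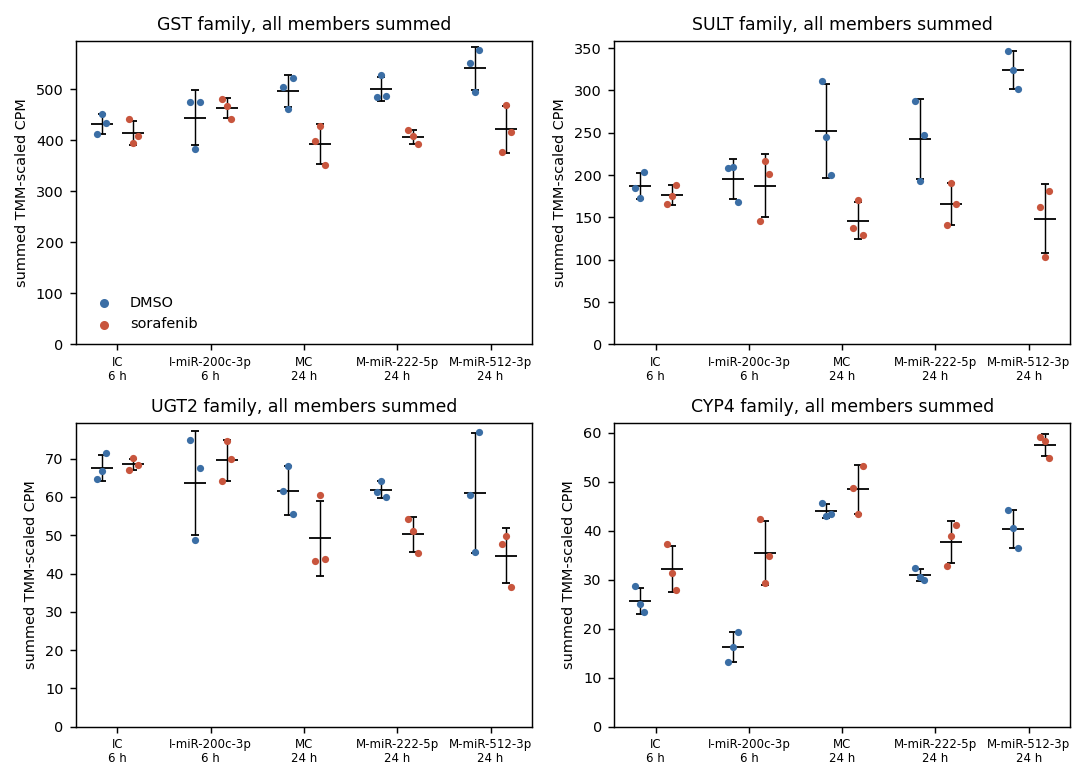
Summed TMM-scaled CPM of all members of the GST, SULT, UGT2 and CYP4 families in each of the 30 libraries; blue points are DMSO, red points sorafenib, and black marks the mean and SD of 3 replicates. The SULT sums of M-miR-512-3p stand at 324 ± 22.5 with DMSO and 149 ± 40.7 with sorafenib, while the CYP4 sums are higher with sorafenib in the mean of every transfection.

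In the CYP2 and CYP3 families, CYP2W1 was the member with the highest level. CYP2W1 is known from fetal gut and colorectal tumours. The 6 h libraries held 28.1, 31.9 and 29.7 CPM in IC with DMSO, 26.8, 25.8 and 31.9 in IC with sorafenib, 24.2, 28 and 24.8 in I-miR-200c-3p with DMSO and 30.7, 27.6 and 34.5 in I-miR-200c-3p with sorafenib. At 24 h with DMSO it was at 15.6, 22.1 and 43.6 CPM in MC, 27.9, 32.7 and 33 in M-miR-222-5p and 26.9, 24.8 and 21.2 in M-miR-512-3p. With sorafenib it was at 12.2, 21.7 and 16.7 CPM in MC, 21.6, 22.3 and 18.1 in M-miR-222-5p and 6.36, 22.8 and 18.1 in M-miR-512-3p. The groups did not overlap in M-miR-222-5p and did in the others, and the log2 fold changes of −0.69, −0.60 and −0.63 (SE 0.37 each) did not pass. CYP2S1 was at 3.05 CPM over the DMSO libraries, CYP2U1 at 1.49 and the arachidonic acid epoxygenase CYP2J2 at 1.28, and none was called.

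CYP3A5, which shares many substrates with CYP3A4, had few counts. In MC it had 16, 7 and 23 counts with DMSO and 0, 0 and 5 with sorafenib. In M-miR-222-5p it had 20, 6 and 8 counts with DMSO and 0, 3 and 0 with sorafenib, and in M-miR-512-3p 10, 0 and 23 with DMSO and 0 in all 3 libraries with sorafenib. The libraries of MC and M-miR-222-5p did not overlap, and those of M-miR-512-3p shared a value of 0. No call was made in edgeR (adjusted p = 0.335, 0.356 and 0.0717), while DESeq2 called it lower in M-miR-512-3p (adjusted p = 0.0264). CYP3A5 is near the floor and can pass the filter through its DMSO libraries alone. Neither the order of its libraries nor the DESeq2 call is therefore evidence of a fall. A library with 0 counts allows up to 0.311 to 0.762 CPM, so no fold change is given.

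Glutathione S-transferases made up the largest sum. GSTO1, an omega-class enzyme that reduces dehydroascorbate and methylated arsenic, was the highest member in every group. In the 6 h experiment it was at 242, 249.99 and 265 CPM in IC with DMSO, 249, 231 and 231 in IC with sorafenib, 303, 209.8 and 295 in I-miR-200c-3p with DMSO and 303, 262 and 266 in I-miR-200c-3p with sorafenib. At 24 h with DMSO it was at 268, 247 and 241 CPM in MC, 277, 321 and 259.9 in M-miR-222-5p and 330.3, 298 and 373 in M-miR-512-3p. With sorafenib it was at 242, 247 and 219 CPM in MC, 251, 237 and 232 in M-miR-222-5p and 245, 303 and 251 in M-miR-512-3p. The groups did not overlap in M-miR-222-5p and did elsewhere, and the log2 fold changes ran from −0.33 (SE 0.17, M-miR-512-3p) to 0.03 (SE 0.15, I-miR-200c-3p) with no call.

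GSTK1, the kappa-class enzyme of mitochondria and peroxisomes, was lower with sorafenib in all 9 libraries of 24 h than in any DMSO library of the same transfection. With DMSO it was at 76.1, 55.8 and 69.2 CPM in MC, 61.2, 62.3 and 55.7 in M-miR-222-5p and 53, 59.5 and 52.7 in M-miR-512-3p. With sorafenib it was at 54.9, 48.2 and 36 CPM in MC, 33.7, 53.6 and 39.5 in M-miR-222-5p and 31.2, 30.8 and 50.2 in M-miR-512-3p. The log2 fold changes of −0.53, −0.51 and −0.56 (SE 0.23 each) did not pass after adjustment (edgeR adjusted p = 0.241, 0.234 and 0.139). Values at 6 h were 46.7, 60.2 and 44.8 CPM in IC with DMSO, 49.9, 41.4 and 43.4 in IC with sorafenib, 48.2, 48.4 and 50.2 in I-miR-200c-3p with DMSO and 45.9, 52.6 and 40 in I-miR-200c-3p with sorafenib. Those groups overlapped.

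GSTM3 and GSTM4 are mu-class enzymes. With DMSO at 24 h, GSTM3 was at 46.9, 41.8 and 45.7 CPM in MC, 32.2, 41.1 and 30.9 in M-miR-222-5p and 27.1, 21.9 and 23.8 in M-miR-512-3p. With sorafenib it was at 22.4, 31.4 and 30.7 CPM in MC, 38.7, 32 and 28.9 in M-miR-222-5p and 13.5, 24.6 and 24.2 in M-miR-512-3p. The groups did not overlap in MC, where the log2 fold change was −0.67 (SE 0.25, edgeR adjusted p = 0.154). At 6 h, the library values were 33.8, 46 and 32.6 CPM in IC with DMSO, 37.6, 41.1 and 39 in IC with sorafenib, 30.6, 31.3 and 44.5 in I-miR-200c-3p with DMSO and 42.7, 47.1 and 44.6 in I-miR-200c-3p with sorafenib. GSTM4 varied between replicates, with 21.5, 31.2 and 67.4 CPM with DMSO and 5.45, 28.9 and 16.3 with sorafenib in MC. The log2 fold change there was −1.26 (SE 0.45, edgeR adjusted p = 0.129), with overlapping libraries. In M-miR-222-5p, GSTM4 was at 16.8, 24.4 and 40.8 with DMSO and 26.6, 21.6 and 32.3 with sorafenib, and in M-miR-512-3p at 23.9, 28.6 and 37.8 with DMSO and 41.6, 26 and 33 with sorafenib. The 6 h libraries held 24.7, 36.8 and 26.8 CPM in IC with DMSO, 32.9, 24.2 and 35.1 in IC with sorafenib, 17.9, 22.5 and 30.6 in I-miR-200c-3p with DMSO and 21.7, 33.9 and 25.2 in I-miR-200c-3p with sorafenib. All of these groups overlapped.

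GSTZ1, which also serves tyrosine breakdown as maleylacetoacetate isomerase, overlapped between DMSO and sorafenib in every transfection. In the 6 h experiment it was at 18.5, 16.3 and 24.4 CPM in IC with DMSO, 24.3, 14 and 21.4 in IC with sorafenib, 29.9, 22.4 and 15.6 in I-miR-200c-3p with DMSO and 31.4, 25.5 and 18.4 in I-miR-200c-3p with sorafenib. At 24 h with DMSO it was at 48.1, 20.2 and 45.2 CPM in MC, 35.3, 22.8 and 30.7 in M-miR-222-5p and 41.7, 26.2 and 14.2 in M-miR-512-3p. With sorafenib it was at 50.3, 27.3 and 18.5 CPM in MC, 34.1, 21.3 and 25 in M-miR-222-5p and 20.4, 24 and 20.2 in M-miR-512-3p. The alpha-class GSTA4, which conjugates the lipid peroxidation product 4-hydroxynonenal, was at 25.2 ± 3.02 CPM with DMSO and 15.5 ± 3.94 with sorafenib in M-miR-512-3p (SD, n = 3), with no overlap and no call (edgeR adjusted p = 0.223). GSTA1, the main alpha-class enzyme of liver, was at 29 ± 5.42 and 15.1 ± 1.07 in M-miR-222-5p, again without overlap or call (edgeR adjusted p = 0.131). GSTA2 and GSTO2 were at 2.07 and 1.57 CPM over the DMSO libraries. Summed over 18 members, the GST family was at 496 ± 30.9 CPM with DMSO and 392 ± 39.3 with sorafenib in MC, 500.02 ± 23.8 and 407 ± 13.4 in M-miR-222-5p, and 541 ± 42.5 and 421 ± 45.8 in M-miR-512-3p.

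The glucuronosyltransferases measured were of the UGT2 family. UGT2B7 conjugates morphine, steroids and many drugs. Values at 6 h were 38.5, 40.4 and 42.1 CPM in IC with DMSO, 38.3, 40.3 and 40.9 in IC with sorafenib, 48.4, 24.1 and 42.5 in I-miR-200c-3p with DMSO and 35.5, 40.1 and 40.9 in I-miR-200c-3p with sorafenib. At 24 h with DMSO it was at 32.3, 34.4 and 29.7 CPM in MC, 32.7, 40.4 and 40.6 in M-miR-222-5p and 31.6, 21.9 and 46.7 in M-miR-512-3p. With sorafenib it was at 20.7, 38.8 and 30.4 CPM in MC, 25.9, 31.6 and 31.1 in M-miR-222-5p and 19.5, 29.3 and 14.8 in M-miR-512-3p. The groups did not overlap in M-miR-222-5p and did elsewhere, and no difference passed. UGT2B10, which glucuronidates nicotine and tertiary amines, was at 21.3 ± 3.87 CPM with DMSO and 12.1 ± 5.18 with sorafenib in M-miR-512-3p, and at 15.6 ± 1.51 and 22 ± 1.9 in I-miR-200c-3p (SD, n = 3). Neither pair overlapped, the directions were opposite, and neither passed (edgeR adjusted p = 0.16 and 0.259). UGT2A3, UGT2B11 and UGT2B4 were at 7.44, 0.83 and 0.398 CPM over the DMSO libraries. Summed over 10 members, the UGT2 family was at 61 ± 15.8 CPM with DMSO and 44.6 ± 7.23 with sorafenib in M-miR-512-3p.

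Counted by the order of libraries alone, all sorafenib libraries lay below all DMSO libraries for 8 of 27 members in MC (12.1% of all genes), 9 in M-miR-222-5p (12.9%) and 7 in M-miR-512-3p (16.3%). In IC and I-miR-200c-3p this held for 1 of 24 each (6.54% and 8.68% of all genes). The opposite order was seen for 1 of 24 members in IC (6.31% of all genes), 3 in I-miR-200c-3p (8.71%), 1 of 27 in MC (12.8%), 2 in M-miR-222-5p (13.9%) and 1 in M-miR-512-3p (13.6%). The lower sets of 24 h hold members near the floor, at 0.83 to 2.07 CPM over the DMSO libraries. These are CYP3A5, GSTA2, GSTO2 and UGT2B11 in MC, CYP3A5 in M-miR-222-5p, and GSTA2 and GSTO2 in M-miR-512-3p. UGT2B4 (0.398 CPM) is likewise in the upper set of M-miR-222-5p. Such a member can pass the filter through its higher group alone, so its order of libraries is no evidence of a fall or rise. SULT2A1 and GSTK1, the latter without a call, were in the lower set in all 3 transfections of 24 h. The share of all genes with this order in all 3 was not counted, so no result is drawn from it.

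The second question was whether the effect of sorafenib differed between 24 h (MC) and 6 h (IC). No member was called by edgeR, beside 0.216% of all genes, 4 of 24 reached an unadjusted p under 0.05, beside 13.7%, and DESeq2 called 1, SULT2A1. The difference for SULT2A1 was −1.46 (SE 0.32, edgeR adjusted p = 0.0727). GSTA2, GSTM3 and GSTM4 were the others under an unadjusted 0.05, at −3.14, −0.76 and −1.37, and each was lower at 24 h. GSTA2 was near the floor, at 2.07 CPM over the DMSO libraries and with a count in 27 of 30 libraries, so the size of its difference is not settled. All 14 members above 10 CPM had a difference below 0, with a median of −0.52. Of the 8179 genes of that level, 49.3% were below 0, with a median of 0.00988. Members come from the same libraries and are not independent replicates. Time, control oligonucleotide and experiment cannot be told apart in this comparison.

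The third question was whether an oligonucleotide changed the members or their response to sorafenib. In edgeR no member was called in any of these 9 comparisons. I-miR-200c-3p against IC gave 2 members of 24 at an unadjusted p under 0.05 with DMSO (5.24% of all genes, 0.0157% called), 0 with sorafenib (2.14%, 0% called) and 1 in the interaction (3.24%, 0% called). M-miR-222-5p against MC gave 1 of 27 with DMSO (5.56%, 0% called), 1 with sorafenib (6.04%, 0% called) and 0 in the interaction (1.96%, 0% called). M-miR-512-3p against MC gave 3 with DMSO (10.5%, 0.634% called), 1 with sorafenib (11.1%, 0.355% called) and 1 in the interaction (5.04%, 0.00755% called). DESeq2 called 1 member, GSTM3 in M-miR-512-3p against MC with DMSO, and 0 in the other 8. GSTM3 was there at 24.3 ± 2.64 CPM against 44.8 ± 2.7 (SD, n = 3), without overlap, and its log2 fold change in edgeR was −0.90 (SE 0.25, adjusted p = 0.121). The calls of SULT1A1 and CYP4F3 in M-miR-512-3p alone are thus not shown to differ from MC.

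Several genes that feed these enzymes passed the test at 24 h. This list and those that follow were chosen with earlier results of these data known, so their counts are no independent support. Of 15 genes for electron transfer and for PAPS, UDP-glucuronate and glutathione supply, 14 were tested. In MC, 4 rose and 0 fell (2.6% of all genes called), in M-miR-222-5p 4 rose and 0 fell (4.38%), and in M-miR-512-3p 4 rose and 2 fell (9.96%). At 6 h, 0 were called in IC (0.0393%), and 2 fell in I-miR-200c-3p (2.28%). The cystine carrier SLC7A11 was at 9.29, 21.1 and 8.54 CPM with DMSO and 95.8, 58.3 and 131 with sorafenib in MC, a log2 fold change of 2.91 (SE 0.42, edgeR adjusted p = 0.000532). GCLC and GCLM, the subunits of the enzyme that starts glutathione synthesis, rose in all 3 transfections of 24 h, by 1.06 to 1.32 and 1.47 to 2.14 on the log2 scale. In I-miR-200c-3p at 6 h SLC7A11 fell, with a log2 fold change of −1.25 (SE 0.32, edgeR adjusted p = 0.0388), as did SLC35D1, a carrier of UDP-sugars (−0.79, SE 0.19). In M-miR-512-3p UGP2, which makes UDP-glucose, rose (0.91), and the cytochromes b5 CYB5A (−0.74) and CYB5B (−0.87) fell. The glutathione reductase GSR rose in MC (0.76) and in M-miR-222-5p (0.81). The 4 genes that rose in MC and in M-miR-222-5p were thus SLC7A11, GCLC, GCLM and GSR, all of glutathione supply. PAPSS1 and SLC35B2, of PAPS supply, and UGDH, of UDP-glucuronate supply, had no call in any transfection. POR, the P450 reductase, had log2 fold changes of −0.19 to 0.17 over the 5 transfections and no call.

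Of 20 regulators of these enzymes, 18 were tested. None was called in IC (0.0393% of all genes called), 1 rose in I-miR-200c-3p (2.28%), 1 rose in MC (2.6%), 2 rose and 3 fell in M-miR-222-5p (4.38%), and 4 rose and 4 fell in M-miR-512-3p (9.96%). The single calls in I-miR-200c-3p and MC are near the share of all genes. HNF4A was at 256, 253 and 259 CPM with DMSO and 111, 90.1 and 88.9 with sorafenib in M-miR-512-3p, a log2 fold change of −1.40 (SE 0.22, edgeR adjusted p = 0.000145). It also fell in M-miR-222-5p (−0.86, SE 0.21) and was at 191, 179 and 199 CPM with DMSO and 81.3, 164 and 97.8 with sorafenib in MC, where it was not called (adjusted p = 0.0681). HNF4A is also among the liver markers, and its part in the members' values was not tested. NR0B2, a repressor known as SHP, fell in M-miR-222-5p and M-miR-512-3p (−1.15 and −1.21), FOXA3 fell in M-miR-222-5p (−1.35), and the bile acid receptor NR1H4 (−1.05) and PPARA (−1.69) fell in M-miR-512-3p. CEBPB rose in the 3 transfections of 24 h (2.15, 1.95 and 1.74). FOXA2 rose in I-miR-200c-3p (1.01), M-miR-222-5p (1.04) and M-miR-512-3p (0.89), and AHR (1.13) and the glucocorticoid receptor NR3C1 (0.79) rose in M-miR-512-3p.

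Of 37 drug-metabolising enzymes of other families, 26 were tested at 6 h and 27 at 24 h. In IC 0 were called (0.0393% of all genes), in I-miR-200c-3p 1 fell (2.28% called), in MC 2 fell (2.6%), in M-miR-222-5p 1 fell (4.38%) and in M-miR-512-3p 5 fell (9.96%), and 0 rose. The single calls in I-miR-200c-3p and M-miR-222-5p are near the share of all genes. CYP1A1, an aryl hydrocarbon receptor target, was at 58.2, 72.9 and 78.8 CPM with DMSO and 1.91, 1.95 and 0.119 with sorafenib in I-miR-200c-3p, a log2 fold change of −5.69 (SE 0.53, edgeR adjusted p = 2.1e-06). In IC it was at 46.5, 32.9 and 68.9 with DMSO and 12.3, 15.4 and 2.94 with sorafenib, without overlap, and just missed the threshold (−2.29, SE 0.43, edgeR adjusted p = 0.0564). At 24 h CYP1A1 was at 1.78, 12.8 and 1.01 with DMSO and 1.12, 12.3 and 1.03 with sorafenib in MC, and at 0.853, 14.4 and 0 with DMSO and 0, 11.1 and 0 with sorafenib in M-miR-222-5p. Replicate 2 was the highest in each of these 4 groups. In M-miR-512-3p it was at 1.99, 2.28 and 2.55 with DMSO and 0, 0 and 0.249 with sorafenib, without overlap and without a call (edgeR adjusted p = 0.188). The epoxide hydrolase EPHX2 fell in MC (−1.18) and M-miR-512-3p (−0.91), as did the monooxygenase FMO5 (−1.51 and −1.55). The carboxylesterase CES2 fell in M-miR-222-5p (−0.68), and MAOB (−1.16), MGST2 (−0.86) and ADH5 (−0.72) fell in M-miR-512-3p.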

How the data were processed

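HepG2 libraries (QuantSeq 3′ FWD) were analysed from the table of raw counts per Ensembl gene that the authors deposited. Per the labels and the study's methods, reads were trimmed, aligned with STAR to GRCh38 and counted with HTSeq; versions, the annotation release, strand handling and molecular identifiers are not given in the sources used here, so counts may hold PCR copies. A normalised table, also deposited, was not used. Of 60199 lines, 92 name no gene (3 counts) and were left out; 56104 identifiers matched a symbol of GENCODE release 44. Replicates are labelled biological.

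Counts were tested with edgeR 4.0.16 in R 4.3.3 (quasi-likelihood F test, TMM, filterByExpr, 1 coefficient per group), for 12 libraries of 6 h (12738 genes), 18 of 24 h (13244 genes) and 12 control libraries for time (12500 genes). SE is the absolute log2 fold change over the square root of F. The common biological coefficient of variation was 0.241, 0.356 and 0.259. The code was tested on simulated data. Libraries of a group differed beyond counting error (chi-square per degree of freedom 4.5 to 66.2 over 30 pairs), so none was treated as deposited again. Totals of 3940000 to 9660000 put 3 counts at 0.311 to 0.762 CPM. Alternatives were DESeq2 1.42.0, total counts, RLE, no filter, only the libraries of the comparison, a replicate block, near-identical copies summed, and each library left out.

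Replicate numbers paired samples (every same-number correlation of deviations over 0.1) in 1 of 25 pairs of groups, MC and M-miR-222-5p with DMSO. This cut leaves out weaker pairing. Between MC with DMSO and M-miR-222-5p with sorafenib, same-number correlations were 0.0505 to 0.076 and the others −0.0514 to −0.012. In many other pairs of groups the ranges overlapped. The labels name no shared batch. Named in full were members called in any comparison and the 10 with the highest mean DMSO level; other members have a value or are counted. Members and lists were chosen with earlier results of these data known. Sequence words of 50 bases were taken from GENCODE transcripts, promoters from RefSeq. UGT1A3 and UGT1A5 were not analysed here. Values of some members are not reported here.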

Additional observations from a re-analysis of the deposited data

Results flagged for a closer look

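Rows of matching symbols that are not annotated as protein-coding were outside the rule, and 9 of these 72 rows held more than 3 counts over all libraries. The highest was UGT2B27P, an unprocessed pseudogene of the UGT2B cluster, with 670 counts in 29 libraries, above the 3 counts that a row at 0 allows and above those of the protein-coding members UGT2B4 (166) and UGT2B11 (167). Its mean level was 5.95 CPM with DMSO and 3.15 with sorafenib in MC, 2.6 and 0.341 in M-miR-222-5p, 4.7 and 1.57 in M-miR-512-3p, 3.64 and 4.94 in IC, and 2.93 and 4.16 in I-miR-200c-3p. These levels were not tested between groups. CYP2U1-AS1, an antisense RNA, followed with 84 counts in 16 libraries, and whether strand was used in counting is not given in the sources used here. Groups held 3 libraries each, too few to search for single outlying samples. No interaction of a member passed the edgeR test.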

How the results depend on the processing

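The falls of SULT2A1 in MC and M-miR-512-3p passed under every alternative run, with adjusted p of 2.89e-07 to 0.0398 and 3.67e-09 to 0.00504. Calls of members kept their number in 98 of 105 results under another setting and in 106 of 114 without 1 library, by the limit of 1.5 times. Most of these results come from comparisons with 0 members called, where the number could only stay or rise. An equal number could also hide a change of member. Without DMSO replicate 2 of I-miR-200c-3p, CYP4F12 was lost and CYP4F3 was called (edgeR adjusted p = 0.0341). Without sorafenib replicate 2 of M-miR-512-3p, SULT1A1 was lost and GSTA1 was called (edgeR adjusted p = 0.0214). In I-miR-200c-3p the count was 0 with only the libraries of the comparison, where CYP4F12 had 6 libraries to estimate the spread, and 0 to 1 without 1 library. In MC it was 2 with no filter (GSTM4 added) and 1 to 2 without 1 library. In M-miR-222-5p it was 1 with no filter and with DESeq2 (SULT2A1 in both) and 0 to 1 without 1 library. In M-miR-512-3p it was 1 to 5 without 1 library, 1 without DMSO replicate 1 and 5 without sorafenib replicate 3 (GSTK1 and CYP2J2 added), and 4 with DESeq2 and with total counts. For the time interaction it was 2 with no filter (SULT2A1 and GSTM4), 1 with DESeq2 and 0 to 1 without 1 library. In M-miR-512-3p against MC with DMSO it was 1 with DESeq2. The causes were not tested.

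SULT1A1 in M-miR-512-3p was lost without DMSO replicates 1 and 2 and sorafenib replicate 2, each with adjusted p under 0.082, and CYP4F12 in I-miR-200c-3p without DMSO replicates 1 and 2 and sorafenib replicates 1 and 2. None of the fold changes recomputed for SULT2A1, SULT1A1, CYP4F3 and CYP4F12 (49 under another setting, 48 without 1 library) reversed. Signs of the other members were counted under total counts alone. The median fold change of the members moved by 0.1 or more on the log2 scale in 2 of 25 results under another setting, both with total counts (−0.71 in MC and −0.88 in M-miR-512-3p), and in 7 of 30 without 1 library. With the replicate block the counts of members called by sorafenib were 0, 1, 1, 0 and 3, the same as without it, and the block changed no call; CYP4F3 in M-miR-512-3p, for example, had a log2 fold change of 1.04 with it. Scaling by total counts moved the median of all genes by −0.11 in MC, −0.11 in M-miR-222-5p and −0.19 in M-miR-512-3p, and 22, 20 and 23 of 27 members were then below 0, with 12 of 24 in IC and 9 of 24 in I-miR-200c-3p, so that some members changed sign. Members under about 10 CPM have wide errors, and a change in them was not detectable at this depth unless it was large. Members above 10 CPM can have wide errors too, such as GSTM4 in MC (SE 0.45). A member without a call is therefore not shown to be unchanged.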
